A study of Mus musculus with 12 samples.

Results

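The lysosomal enzymes and the proton pump that acidifies lysosomes were examined in sorted synovial macrophages through 36 genes, taken by symbol out of 26699 gene symbols counted. They comprised 9 cathepsins and legumain, 7 genes for glycosidases, a lipase and hydrolase activators, 5 genes for lysosomal membrane proteins and a channel, 3 transcription factors of the MiT family, and 12 subunits of the vacuolar ATPase (V-ATPase), of which 5 belong to the membrane sector V0 and 7 to the catalytic sector V1. All 36 had enough counts to be tested, among 11927 genes in all. The lowest count of any of them in a library was 20 (*Glb1*) and the highest was 29152 (*Ctsb*).

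Whole synovium from adult wild-type C57BL/6 mice was kept as an explant for 4 h with 100 nM of the sensory neuropeptide CGRP (calcitonin gene-related peptide) or with vehicle control, and macrophages were sorted from the digested tissue for total RNA sequencing. The IAIE subset (MHC class II-positive, CD11c-negative) and the CD11c subset (positive for both) each gave 3 control and 3 CGRP libraries, 12 in all, and no group carried a transgene or a deletion. The titles of the control libraries read Healthy, and their 4 h with vehicle is as described in the study's methods. CGRP was applied to the whole tissue, so that the sorted cells were exposed together with the fibroblasts, vessels and other cells around them. The labels do not say whether the libraries of a group came from separate animals, so the p-values measure the spread between these libraries, which may be technical.

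Lysosomes degrade material taken up by phagocytosis or delivered by autophagy, with hydrolases that work best at acid pH. The V-ATPase provides that acidity: its V1 sector hydrolyses ATP and its V0 sector carries protons across the membrane. The MiT factors *Tfeb*, *Tfe3* and *Mitf* bind E-box sequences in the promoters of many lysosomal genes, and macrophages are rich in lysosomes because digestion, lipid handling and the processing of antigen for MHC class II all depend on them.

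Promoter sequence is shown first, because the E-box is the sequence that MiT factors bind. RefSeq promoter windows (mouse build GRCm38.p6, 250 bases before to 50 after a transcription start) were at hand for 31 of the 36 genes. The E-box CACGTG, which reads the same on both strands, was found in at least 1 window of 12 of these 31 genes (38.7%), against 8.09% of 27025 genes with a window and 12.1% of the 8827 tested genes with a window. The longer form TCACGTGA, which contains it, was found in 6 of 31 (19.4%), against 1.12% and 2.35%. The longer form with a further G before and C after it was found in 0 of 31, against 0.37% and 0.861%. The stretches that hold the longer form are printed 5′ to 3′ with every E-box in capitals, extended to 8 letters where the flanking bases match, and with coordinates on GRCm38.
*Ctsd*, chr7:142387899-142387946, minus strand: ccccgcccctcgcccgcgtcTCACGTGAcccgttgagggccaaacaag
*Ctsa*, chr2:164833740-164833772, plus strand: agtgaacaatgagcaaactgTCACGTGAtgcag
*Mcoln1*, chr8:3500428-3500500, plus strand: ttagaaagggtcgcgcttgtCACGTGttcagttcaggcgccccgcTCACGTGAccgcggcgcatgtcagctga
*Atp6v1a*, chr16:44139364-44139411, minus strand: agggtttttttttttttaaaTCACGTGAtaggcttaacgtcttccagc
*Atp6v0d1*, chr8:105566050-105566079, minus strand: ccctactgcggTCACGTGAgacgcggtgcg
*Atp6v0e*, chr17:26676387-26676416, plus strand: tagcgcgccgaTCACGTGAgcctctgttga
*Ctsa* held another copy of the longer form that began 5 bases past the start, and the copy of *Atp6v0e* began 3 bases past it. The largest number of E-boxes in a stretch was in *Lamp1*, with 4 between 61 bases upstream and the start.
*Lamp1*, chr8:13159080-13159160, plus strand: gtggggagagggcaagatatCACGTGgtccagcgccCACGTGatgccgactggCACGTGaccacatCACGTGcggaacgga
*Ctsl*, *Gaa*, *Lgmn*, *Atp6v0b* and *Glb1* held the plain E-box only, and the stretches of *Ctsl* and *Gaa* are shown because these genes had the largest differences between the subsets described further on.
*Ctsl*, chr13:64370731-64370770, minus strand: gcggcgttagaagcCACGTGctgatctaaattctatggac
*Gaa*, chr11:119267803-119267848, plus strand: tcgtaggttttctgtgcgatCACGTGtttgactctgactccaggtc
A match is a description of these letters in these windows, and binding of any factor was not measured here.

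Levels are given in CPM, the read count of a gene relative to the TMM-scaled total of its library. The totals lay between 2127191 and 5649698 counts, and the floor of 3 counts was worth 0.534 to 1.34 CPM. The sort markers followed the labels: *Itgax*, which encodes CD11c, was at 1.24 to 10.7 CPM in IAIE control and at 219 to 270 CPM in CD11c control libraries. After CGRP it was at 1.70 to 9.53 and 107 to 121 CPM, and it fell in CD11c cells (-1.03 ± 0.30, adjusted p = 0.0288). *H2-Ab1*, an MHC class II chain, fell in both subsets (-0.74 ± 0.11, adjusted p = 3.16e-04, and -0.66 ± 0.11, adjusted p = 5.74e-04). By edgeR it was higher in CD11c than in IAIE control libraries, by 1.44 ± 0.12 (adjusted p = 5.27e-08). In CGRP libraries this difference was 1.52 ± 0.12 (adjusted p = 2.94e-08), although both subsets were sorted as MHC class II-positive. The 10 macrophage markers summed to 7138 to 9907 CPM in IAIE control, 6553 to 7972 CPM in IAIE CGRP, 5692 to 7523 CPM in CD11c control and 3928 to 4971 CPM in CD11c CGRP libraries. The 7 dendritic cell markers summed to 259 to 281, 149 to 165, 657 to 745 and 717 to 827 CPM in the same order. The 10 fibroblast markers summed to 359 to 1561, 570 to 2206, 207 to 277 and 467 to 771 CPM, with the highest values in IAIE control replicate 2 (*Col1a1* at 670 CPM) and IAIE CGRP replicate 1 (*Prg4* at 1433 CPM). Of these, *Pdpn* was at 162.5 to 190 CPM in IAIE control, 517 to 633 CPM in IAIE CGRP, 171 to 252.5 CPM in CD11c control and 317 to 409 CPM in CD11c CGRP libraries, and its part in the results was not tested. The 6 chondrocyte markers, 5 of them counted, reached 431 CPM in CD11c CGRP replicate 2 and at most 105 CPM elsewhere. Of the other lists, osteoclast markers summed to 54.4 to 153 CPM over the 12 libraries, neutrophil markers to 18.03 to 162 CPM, mast cell markers to 0.729 to 141 CPM, endothelial markers to 11.5 to 120 CPM, B cell markers to 0.712 to 91.5 CPM and T cell markers to at most 0.931 CPM. The macrophage sums were led by *Lyz2*, at 2948 to 4337 CPM in IAIE control and 3725 to 5389 CPM in CD11c control libraries. In the same groups *Csf1r* was at 1276 to 1551 and 517 to 636 CPM, and *C1qb* at 667 to 1156 and 255 to 347 CPM. Of the 10 macrophage markers, 8 were lower and 0 higher in CD11c control libraries by edgeR. Of the osteoclast list *Oscar* was at 0 in 11 of the 12 libraries, *Dcstamp* at 55.4 to 80.4 CPM in CD11c libraries and *Mmp9* at 36.7 to 58.6 CPM in IAIE controls. Of the neutrophil list *Ly6g* was at 0 in 10 libraries, *S100a9* reached 90.3 CPM and *Csf3r* was at 40.8 to 55.5 CPM in IAIE libraries. Of the dendritic cell list *Ccr7* was at 201.5 to 260 CPM in CD11c control and 515 to 618 CPM in CD11c CGRP libraries. *Cd209a* was at 290 to 304 and 68.3 to 87.4 CPM in the same groups. By edgeR 1 gene of that list rose and 2 fell with CGRP in CD11c cells. Between the subsets 3 genes of that list were higher and 1 lower in CD11c control libraries by edgeR. In CD11c CGRP libraries 3 were higher and 0 lower. *Zbtb46* was at 5.89 to 15.7 CPM in IAIE control and 75.9 to 80.7 CPM in CD11c control libraries. *Clec10a* was at 113 to 155 CPM in IAIE control and 40.0 to 80.2 CPM in CD11c control libraries. Values without the 3 libraries named here for their fibroblast or chondrocyte counts follow the comparisons.

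Together the 36 genes took 2.04% ± 0.067 of all counts in IAIE control libraries (SD, n = 3), 2.08% ± 0.0232 in IAIE CGRP libraries, 1.46% ± 0.042 in CD11c control libraries and 1.31% ± 0.0347 in CD11c CGRP libraries. The subsets did not overlap: the 6 IAIE libraries lay between 1.965% and 2.095% and the 6 CD11c libraries between 1.285% and 1.504%. *Ctsb* (cathepsin B, a cysteine protease) alone held 23.4% to 27.4% of the member counts in IAIE libraries and 15.7% to 19.6% in CD11c libraries. Cathepsins and legumain made up the largest sum in every library, at 9528 to 12562 CPM in IAIE and 6686 to 7300 CPM in CD11c libraries. The V1 subunits summed to 2173 to 2716 CPM in IAIE and 1252 to 1461 CPM in CD11c libraries, whereas the V0 subunits summed to 487 to 553 CPM and 365 to 452 CPM.

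**Figure D1:**
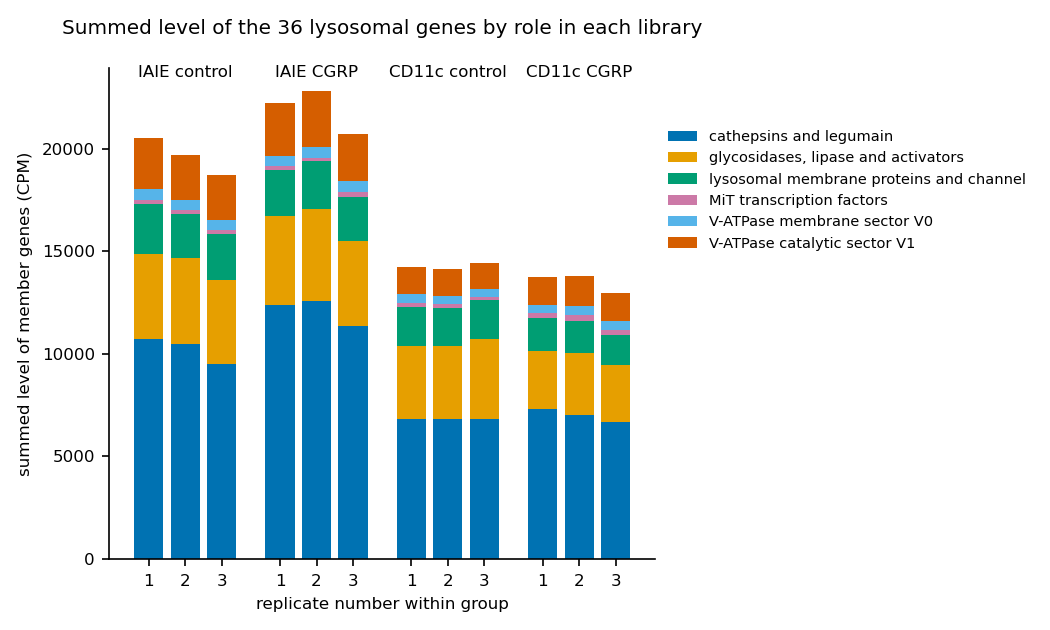
Summed level of the 36 genes in CPM (vertical axis) in each of the 12 libraries (bars, by replicate number within group), stacked by role in colour. Cathepsins and legumain are the largest block in each bar, and the IAIE bars stand above the CD11c bars in both treatments.

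Scaled by exon length (CPM per kb of merged exons in GENCODE M21, which may differ from the annotation used for counting), the order of the genes could be compared. This order depends on which transcript models are merged: the merged length was 6.05 kb for *Ctsb* and 1.36 kb for *Ctss*. Before scaling *Ctsb* was the higher of these in IAIE controls, at 4764 ± 375 against 1287 ± 25.5 CPM. In IAIE control libraries *Ctss* (cathepsin S, which trims the invariant chain of MHC class II) was highest at 948 ± 18.8 CPM per kb. It was followed by *Psap* (prosaposin, the precursor of sphingolipid activators) at 828 ± 34.2 and *Ctsb* at 787 ± 61.9, and these last 2 lay within their spread of each other. *Ctsz* (cathepsin Z) followed at 626 ± 72.2 and *Lgmn* (legumain, an asparaginyl protease) at 562 ± 58.9, again within their spread. In CD11c control libraries the order was *Ctss* at 1081 ± 59.7, *Psap* at 882 ± 81.5, *Ctsz* at 716 ± 3.70, *Ctsb* at 380 ± 4.69 and *Lgmn* at 329 ± 19.5. The MiT factors were near the bottom in both subsets: *Tfe3* at 11.0 ± 1.24 and 11.7 ± 1.81, *Mitf* at 7.83 ± 2.71 and 9.55 ± 2.06, and *Tfeb* at 5.57 ± 0.363 and 3.98 ± 1.84 CPM per kb in IAIE and CD11c controls. The lowest gene was *Glb1* (beta-galactosidase) in IAIE controls, at 4.91 ± 1.82, and *Mcoln1* (the calcium channel TRPML1) in CD11c controls, at 3.23 ± 0.671 CPM per kb. The largest fall in rank was that of *Ctsl* (cathepsin L), from rank 15 in IAIE to rank 24 in CD11c controls.

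**Figure D2:**
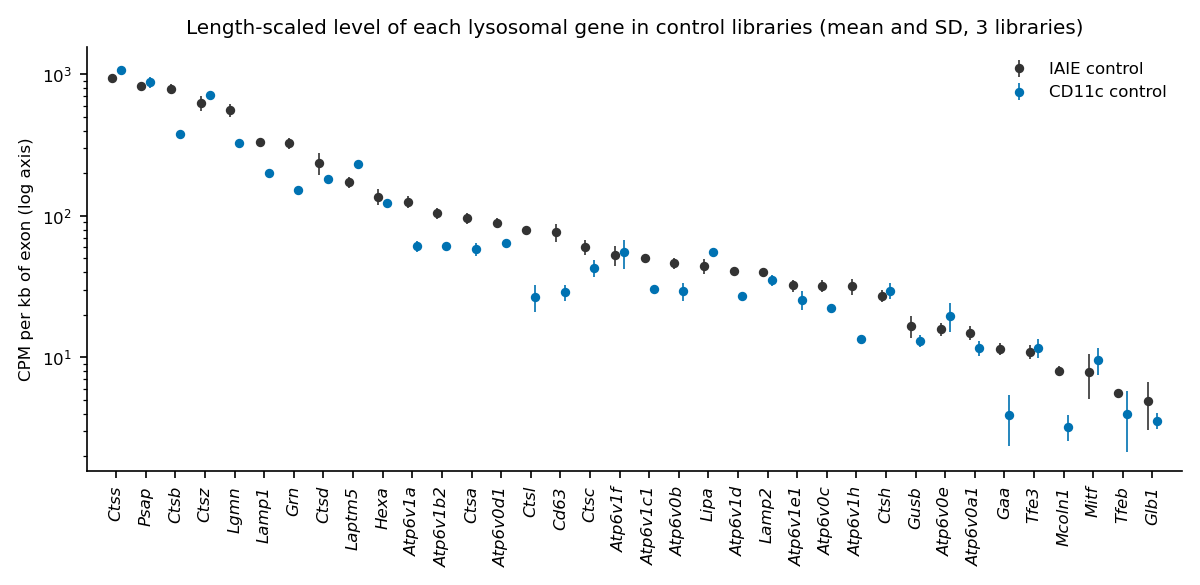
Level of each gene in CPM per kb of exon (log axis) in IAIE control (dark) and CD11c control libraries (blue), mean and SD over 3 libraries, ordered by the IAIE value. *Ctss* and *Psap* lead in both subsets, and *Ctsl*, *Cd63*, *Gaa* and *Mcoln1* show wide gaps between the subsets.

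The comparison of CD11c with IAIE cells asked how the subsets differ before and after CGRP. Of those among the 36 members that passed the edgeR test, all but *Laptm5* were lower in CD11c cells. In control libraries 19 of the 36 genes passed the threshold (edgeR quasi-likelihood test, Benjamini-Hochberg adjusted p under 0.05), 18 of them lower and 1 higher in CD11c cells, which is 52.8% of the members against 21.2% of all genes tested. Of all genes, 10.9% were lower and 10.2% higher. In CGRP libraries 22 passed (61.1% against 16.9% of all genes), each of them lower in CD11c cells, where 8.51% of all genes were lower and 8.36% higher. With treatment and replicate number together as a block, the paired form of this comparison, 21 were lower and 1, *Ctsz*, was higher (adjusted p = 0.0402). The median log2 difference of the members was -0.48 in control and -0.51 in CGRP libraries, where the medians of all genes were -0.02 and 0.00. Control libraries of the subsets did not overlap for 25 members (34.2% of all genes), 4 higher and 21 lower (16.7% and 17.5% of all genes). CGRP libraries did not overlap for 26 (34.8%), 2 higher and 24 lower (17.8% and 17.0%). The genes lower in both treatments numbered 15: *Ctsa*, *Ctsb*, *Ctsl*, *Lgmn*, *Gaa*, *Grn*, *Lamp1*, *Cd63*, *Mcoln1*, *Atp6v0b*, *Atp6v1a*, *Atp6v1b2*, *Atp6v1c1*, *Atp6v1d* and *Atp6v1h*. *Mcoln1* is counted here from the unpaired fit and was lost in the paired form, which leaves 14. In bulk samples, fewer cells of a type and less RNA per cell cannot be told apart. Of the 10 macrophage markers, 8 were also lower in CD11c cells in both treatments, and whether the same cells account for both differences was not tested.

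**Figure D3:**
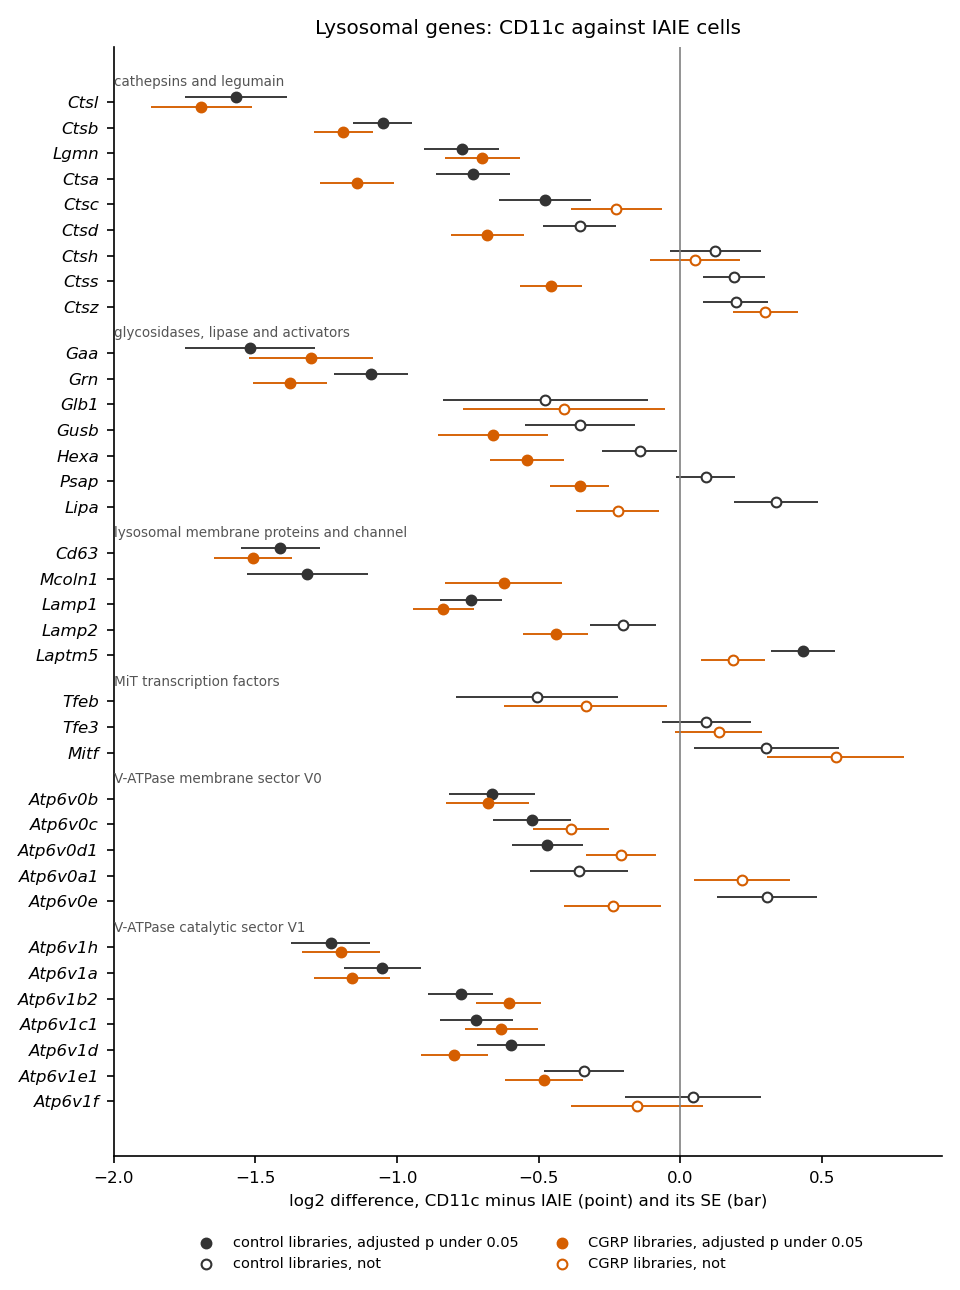
Log2 difference, CD11c minus IAIE (horizontal axis), of the 36 genes by role, with SE bars, in control (dark) and CGRP libraries (orange), filled where the adjusted p was under 0.05. Most points lie left of 0, from -1.69 for *Ctsl* to 0.55 for *Mitf*, and *Laptm5* is the filled point on the right.

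Among the cathepsins and legumain, 5 of 9 were lower in CD11c cells in control libraries and 6 of 9 in CGRP libraries. *Ctsb* was at 5131, 4779 and 4382 CPM in the IAIE control libraries and at 2317, 2317 and 2268 CPM in the CD11c control libraries (replicates 1 to 3). The groups were far apart, with a log2 difference of -1.05 ± 0.10 (SE, adjusted p = 7.26e-07). After CGRP the IAIE libraries stood at 5872, 6255 and 5497 CPM and the CD11c libraries at 2643, 2699 and 2387 CPM, a log2 difference of -1.19 ± 0.10 (adjusted p = 1.36e-07). *Ctsl*, a cathepsin that also cuts the invariant chain, differed most of all members. It was at 497, 507 and 541 CPM in the IAIE controls and at 135, 211 and 173 CPM in the CD11c controls, so that all IAIE libraries were higher. Its log2 difference was -1.57 ± 0.18 (adjusted p = 3.88e-06). In CGRP libraries the difference was -1.69 ± 0.18 (adjusted p = 1.33e-06). *Ctss*, *Ctsz* and *Ctsh* (cathepsins S, Z and H) had log2 differences of 0.19 ± 0.11, 0.19 ± 0.11 and 0.12 ± 0.16 in control libraries and did not pass. In CGRP libraries *Ctss* was lower in CD11c cells by -0.46 ± 0.11 (adjusted p = 0.00627), whereas *Ctsz* and *Ctsh* were at 0.30 ± 0.11 and 0.05 ± 0.16. *Ctsc* (cathepsin C, which activates granule serine proteases) was lower by -0.48 ± 0.16 in control libraries (adjusted p = 0.0409) and at -0.23 ± 0.16 in CGRP libraries. The call of *Ctsc* was lost in 8 of the 12 fits without a library, with an adjusted p of up to 0.269 without CD11c control replicate 3. *Lgmn* was lower in both treatments, by -0.77 ± 0.13 and -0.70 ± 0.13, and so was *Ctsa* (cathepsin A, which protects beta-galactosidase and neuraminidase), by -0.73 ± 0.13 and -1.14 ± 0.13. *Ctsd* (cathepsin D, an aspartic protease) was at -0.36 ± 0.13 in control (adjusted p = 0.0565) and lower by -0.68 ± 0.13 in CGRP libraries (adjusted p = 7.78e-04). For *Ctsl* 26.3% and for *Ctsd* 32.4% of the 50-base words of their transcripts also occur in overlapping gene models (*Gm47123* on the opposite strand and *Gm49369*), as do 12.1% of those of *Ctsb* (*Fdft1*) and 11.6% of those of *Ctsa* (*Pltp*), and the strand setting of the counting is not stated.

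Of the glycosidases, lipase and activators, 2 of 7 were lower in CD11c cells in control and 5 of 7 in CGRP libraries. *Grn* (progranulin, a precursor of lysosomal granulins) was at 1201, 1176 and 1021 CPM in IAIE control and at 512, 544 and 538 CPM in CD11c control libraries. After CGRP it was at 1240, 1191 and 1074 CPM in IAIE and at 543, 415 and 389.5 CPM in CD11c libraries. The groups did not overlap in either treatment, and the log2 difference was -1.09 ± 0.13 (adjusted p = 6.28e-06) in control and -1.38 ± 0.13 (adjusted p = 4.21e-07) in CGRP libraries. *Gaa* (acid alpha-glucosidase, which degrades glycogen) was lower by -1.52 ± 0.23 in control (adjusted p = 8.56e-05) and by -1.30 ± 0.22 in CGRP libraries (adjusted p = 2.29e-04). *Hexa* (the alpha subunit of beta-hexosaminidase), *Gusb* (beta-glucuronidase) and *Psap* passed in CGRP libraries, at -0.54 ± 0.13, -0.66 ± 0.19 and -0.35 ± 0.10, and not in control libraries, at -0.14 ± 0.13, -0.35 ± 0.19 and 0.09 ± 0.10. *Lipa* (lysosomal acid lipase, which splits cholesteryl esters and triglycerides) was at 0.34 ± 0.15 in control and -0.22 ± 0.15 in CGRP libraries and passed in neither. Of the calls in CGRP libraries, that of *Gusb* was lost without IAIE CGRP replicate 3 (adjusted p = 0.106) or CD11c CGRP replicate 2 (adjusted p = 0.125), and that of *Psap* without IAIE CGRP replicate 1 or 2 or CD11c CGRP replicate 1 or 3 (adjusted p between 0.0697 and 0.0977).

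Of the 5 members for lysosomal membrane proteins and a channel, 3 were lower and 1, *Laptm5*, higher in CD11c control libraries. In CGRP libraries 4 were lower and 0 higher in CD11c cells. *Cd63* (a tetraspanin of late endosomes and lysosomes) was at 326, 242 and 281 CPM in IAIE control and at 97.1, 122 and 99.3 CPM in CD11c control libraries. Every IAIE library was higher, and the log2 difference was -1.41 ± 0.14 (adjusted p = 7.23e-07). The CGRP libraries stood at 366, 385 and 358 CPM in IAIE and at 139.8, 126 and 124 CPM in CD11c cells, a log2 difference of -1.51 ± 0.14 (adjusted p = 2.35e-07). *Mcoln1*, which releases calcium from lysosomes, was at 61.1, 65.1 and 55.95 CPM in IAIE control and at 25.3, 18.9 and 29.0 CPM in CD11c control libraries, without overlap. Its log2 difference was -1.32 ± 0.21 in control (adjusted p = 1.70e-04) and -0.62 ± 0.21 in CGRP libraries (adjusted p = 0.0445). The latter call did not hold with treatment and replicate number as a block (adjusted p = 0.0569). It was also lost without IAIE control replicate 1, CD11c control replicate 3, IAIE CGRP replicate 2 or 3, or any CD11c CGRP replicate, with an adjusted p between 0.0506 and 0.207. *Lamp1*, a major glycoprotein of the lysosomal membrane, was lower by -0.74 ± 0.11 (adjusted p = 6.54e-05) and -0.84 ± 0.11 (adjusted p = 1.69e-05), and *Lamp2* (its relative, which also takes part in autophagy) was at -0.20 ± 0.12 in control and lower by -0.44 ± 0.11 in CGRP libraries (adjusted p = 0.0109). The call of *Lamp2* was lost without IAIE CGRP replicate 1 (adjusted p = 0.0565) or CD11c CGRP replicate 3 (adjusted p = 0.0502). *Laptm5*, a lysosomal membrane protein of blood cells, was the gene higher in CD11c controls: 721, 610 and 633 CPM in IAIE and 911, 882 and 858 CPM in CD11c libraries, without overlap, a log2 difference of 0.43 ± 0.11 (adjusted p = 0.00929). In CGRP libraries it was at 0.19 ± 0.11 (adjusted p = 0.310).

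The V-ATPase was lower in CD11c cells at 8 of its 12 subunits in control libraries and at 7 of 12 in CGRP libraries, with the larger differences in the V1 sector. *Atp6v1h*, a regulatory V1 subunit, was at 357, 286 and 288 CPM in IAIE control and at 132, 134 and 130 CPM in CD11c control libraries. After CGRP the IAIE libraries were at 290.1, 355 and 320.2 CPM and the CD11c libraries at 140.2, 160.1 and 121 CPM. Neither pair of groups overlapped, with a log2 difference of -1.23 ± 0.14 (adjusted p = 3.47e-06) in control and -1.20 ± 0.14 (adjusted p = 4.27e-06) in CGRP libraries. *Atp6v1a*, the subunit that hydrolyses ATP, was at 843, 756 and 686 CPM in IAIE control and at 373, 397 and 334 CPM in CD11c control libraries, and after CGRP at 1009, 1024 and 779 CPM in IAIE and at 439, 447 and 373 CPM in CD11c libraries. It was lower by -1.05 ± 0.13 (adjusted p = 1.42e-05) in control and by -1.16 ± 0.13 (adjusted p = 4.57e-06) in CGRP libraries. *Atp6v1b2* (the other subunit of the ATPase ring), *Atp6v1c1* and *Atp6v1d* were lower by -0.78, -0.72 and -0.60 in control libraries (SE 0.12 to 0.13) and by -0.61, -0.63 and -0.80 in CGRP libraries. *Atp6v1e1*, a stalk subunit, was at -0.34 ± 0.14 and did not pass in controls, and it was lower by -0.48 ± 0.14 in CGRP libraries (adjusted p = 0.0200). The call of *Atp6v1e1* was lost without IAIE CGRP replicate 2 or 3 or CD11c CGRP replicate 1 or 2 (adjusted p between 0.0591 and 0.0905). *Atp6v1f*, which shares 11.2% of its 50-base words with *AC169506.3*, was at 0.04 ± 0.24 and -0.15 ± 0.23. In the V0 sector *Atp6v0b*, which belongs to the proteolipid ring, was lower in both treatments, by -0.67 ± 0.15 and -0.68 ± 0.15. *Atp6v0c*, another ring subunit, and *Atp6v0d1* were lower in control libraries by -0.52 ± 0.14 and -0.47 ± 0.13 and stood at -0.39 ± 0.13 and -0.21 ± 0.12 in CGRP libraries. Without CD11c control replicate 3 the adjusted p was 0.0596 for *Atp6v0c* and 0.0718 for *Atp6v0d1*, and without CD11c control replicate 2 it was 0.0912 for *Atp6v0d1*. *Atp6v0a1* (-0.36 ± 0.17 and 0.22 ± 0.17) and *Atp6v0e* (0.31 ± 0.18 and -0.24 ± 0.17) passed in neither. The value of *Atp6v0c* is uncertain, since 10.8% of its 50-base words occur in processed copies such as *Atp6v0c-ps2*, and the same holds for *Cd63* (11.1%, *Cd63-ps*).

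The MiT factors were the group for which no member differed between the subsets at the threshold (0 of 3 by edgeR, DESeq2 and limma-voom in either treatment, and 0 in control and 1 in CGRP libraries at an unadjusted p under 0.05). *Tfeb* was at 33.2, 29.2 and 32.2 CPM in IAIE control and at 33.0, 12.2 and 22.5 CPM in CD11c control libraries. CD11c control replicate 1 lay within the IAIE range and the other two below it, and the log2 difference was -0.51 with a 95% interval of -1.11 to 0.10. With 1 surrogate variable in the fit *Tfeb* passed as lower in CD11c controls (adjusted p = 0.0403). *Tfe3* was at 88.4, 108 and 109 CPM in IAIE and at 120, 116 and 89.3 CPM in CD11c control libraries, with overlap, and differed by 0.09 (95% interval -0.24 to 0.42). *Mitf* was at 0.30 (95% interval -0.23 to 0.84) in control and 0.55 (0.04 to 1.06) in CGRP libraries, where it passed with every gene of at least 1 count in the fit (adjusted p = 0.0305). The interval of *Tfeb* includes a difference as large as that of *Ctsb*.

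Set beside the promoter letters, 8 of the 11 genes that were lower in CD11c cells in both treatments and had a promoter window held an E-box, against 4 of the other 20 members with a window. The 8 were *Ctsa*, *Ctsl*, *Lgmn*, *Gaa*, *Lamp1*, *Mcoln1* (lost in the paired form), *Atp6v0b* and *Atp6v1a*. *Grn*, *Cd63* and *Atp6v1d* were lower without one. The longer form was found in 3 of the 11 and 3 of the 20. Over all tested genes with a window, 12.1% held an E-box and 2.35% the longer form. The shares among all genes lower in CD11c cells in both treatments were not counted. These are counts in few genes and no test was made on them.

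The effect of CGRP was then examined within each subset. By edgeR the share of lysosomal genes that changed was near that of all genes. In the IAIE subset 2 of the 36 genes rose (*Lipa* and *Ctsl*) and 1 fell (*Laptm5*), which is 8.33% against 9.21% of all genes (5.32% up and 3.89% down). In the CD11c subset 1 rose (*Mitf*) and 3 fell (*Hexa*, *Psap* and *Laptm5*), which is 11.1% against 10.9% of all genes (6.29% up and 4.59% down). The shares depended on the tool: DESeq2 called 22.2% of the members against 11.3% of all genes in IAIE cells and 25.0% against 12.9% in CD11c cells, and limma-voom 19.4% against 7.90% and 22.2% against 13.0%. With upper-quartile scaling the splits were 2 higher and 2 lower in IAIE cells and 1 higher and 7 lower in CD11c cells. The median log2 difference of the members was 0.05 in the IAIE and 0.07 in the CD11c subset, and that of all genes -0.02 and 0.00. Control and CGRP libraries did not overlap for 18 members in IAIE cells (24.9% of all genes) and for 16 in CD11c cells (29.2%). The gene that passed in both subsets was *Laptm5*.

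**Figure D4:**
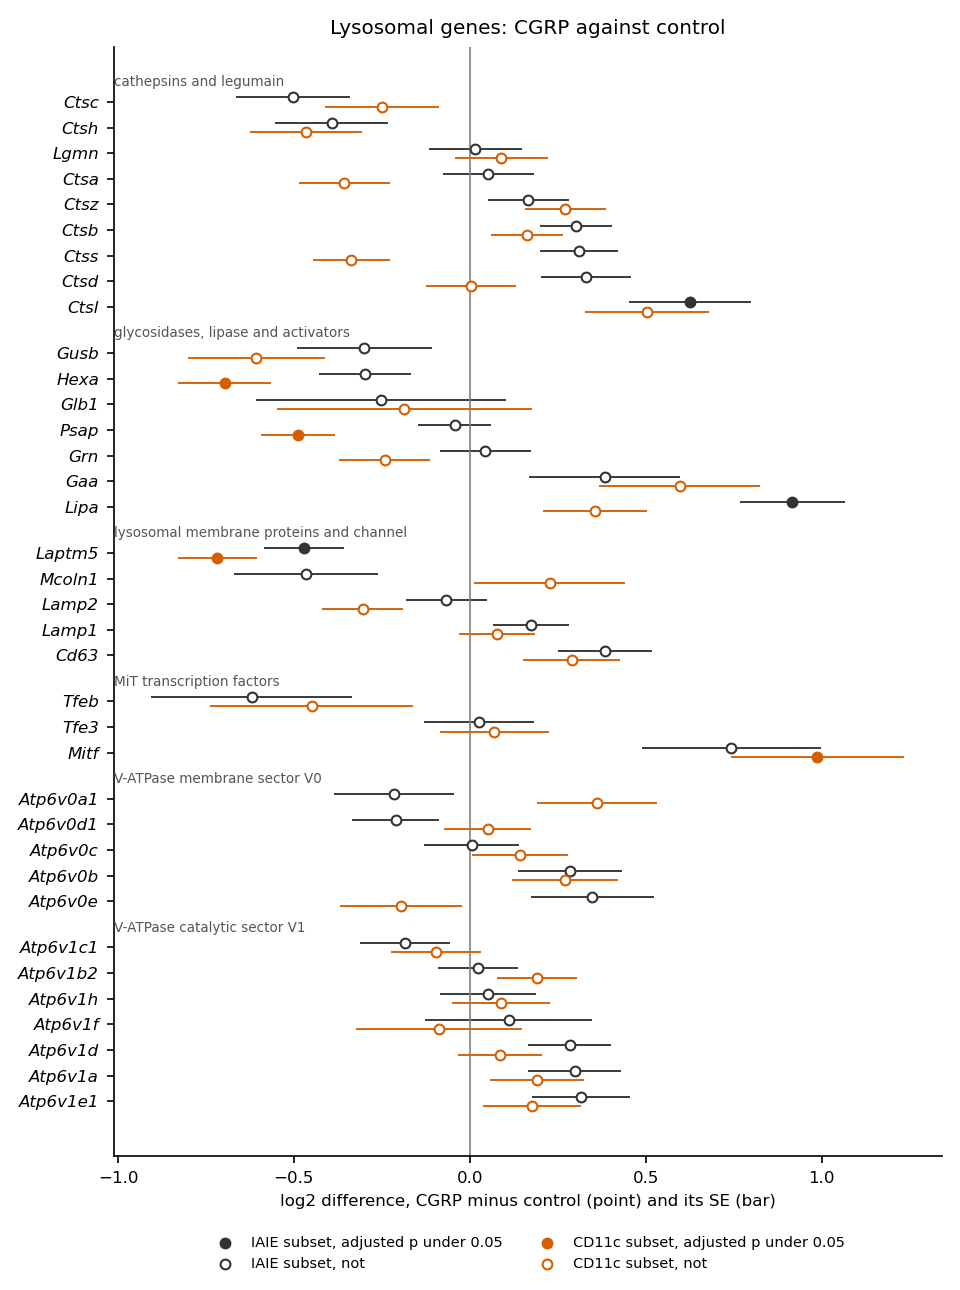
Log2 difference, CGRP minus control (horizontal axis), of the 36 genes by role, with SE bars, in the IAIE (dark) and CD11c subset (orange), filled where the adjusted p was under 0.05. Points scatter on both sides of 0, between -0.72 for *Laptm5* in CD11c cells and 0.99 for *Mitf* in CD11c cells, and 7 points are filled.

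*Lipa* (chr19:34492318-34527474, minus strand, GRCm38) showed the largest rise in IAIE cells. The controls stood at 267, 293 and 341 CPM and the CGRP libraries at 503, 658 and 537 CPM, and every CGRP library was above every control. The ratio of CGRP to control was 1.89, a log2 difference of 0.92 ± 0.15 (adjusted p = 4.88e-04), and it passed in each alternative fit. In CD11c cells *Lipa* was at 398, 369 and 371 CPM in control and at 392, 582 and 484 CPM in CGRP libraries, which overlapped, with a log2 difference of 0.36 ± 0.15 (adjusted p = 0.145). The difference between the subsets' responses was -0.56 ± 0.21 (95% interval -0.997 to -0.12, adjusted p = 0.407).

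*Ctsl* (chr13:64359337-64370890, minus strand) was at 830, 747 and 807 CPM in IAIE CGRP libraries, all above the 497 to 541 CPM of the controls, a log2 difference of 0.63 ± 0.17 (adjusted p = 0.0266). It passed the threshold in each alternative with all libraries, and lost it, with an adjusted p between 0.0504 and 0.0818, when IAIE control replicate 1 or 2 or any of the IAIE CGRP replicates was left out. In CD11c cells the CGRP libraries were at 266, 172 and 300 CPM against 135 to 211 CPM in controls, overlapping at replicate 2, with a log2 difference of 0.50 ± 0.18 (adjusted p = 0.0751). It passed there without CD11c CGRP replicate 2 (adjusted p = 0.0064) or CD11c control replicate 2 (adjusted p = 0.0495), by limma-voom (adjusted p = 0.0427) and with every gene of at least 1 count in the fit (adjusted p = 0.0103).

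*Laptm5* (chr4:130913125-130936141, plus strand) fell in both subsets. In IAIE cells it went from 721, 610 and 633 CPM in control to 498, 452 and 466 CPM in CGRP libraries, a log2 difference of -0.47 ± 0.11 (adjusted p = 0.0105). In CD11c cells it went from 911, 882 and 858 CPM to 586, 520 and 506 CPM, a log2 difference of -0.72 ± 0.11 (adjusted p = 2.29e-04). Control and CGRP libraries were apart in both subsets. The IAIE value had an adjusted p of 0.0562 without IAIE control replicate 1, 0.0591 without IAIE CGRP replicate 2 and 0.0707 with every gene of at least 1 count in the fit. The difference between the subsets was -0.25 ± 0.16 (adjusted p = 0.738).

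*Hexa* (chr9:59539540-59565109, plus strand), which degrades gangliosides, fell in CD11c cells from 239, 252 and 250 CPM in control to 173, 139 and 145 CPM in CGRP libraries. The groups did not overlap, at a log2 difference of -0.70 ± 0.13 (adjusted p = 0.00130). In IAIE cells it was at 314, 251 and 253 CPM in control and at 212, 240 and 213 CPM in CGRP libraries, with a log2 difference of -0.30 ± 0.13 (adjusted p = 0.184), so that the direction was the same. Of the 50-base words of *Hexa*, 10.6% also occur in *Tmem202*. *Psap* (chr10:60277627-60302597, plus strand) fell in CD11c cells from 2306, 2274 and 2676 CPM to 1649, 1844 and 1682 CPM, by a log2 difference of -0.49 ± 0.10 (adjusted p = 0.00380). In IAIE cells it was at 2164, 2327 and 2326 CPM in control and at 2231, 2247 and 2139 CPM in CGRP libraries, which overlapped, at -0.04 ± 0.10 (95% interval -0.26 to 0.18). The difference between the subsets was -0.44 ± 0.15 for *Psap* (adjusted p = 0.332) and -0.40 ± 0.19 for *Hexa* (adjusted p = 0.559).

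Among the MiT factors, *Mitf* (chr6:97807052-98021349, plus strand) rose in CD11c cells from 47.7, 56.8 and 72.9 CPM in control to 89.0, 154 and 112 CPM in CGRP libraries, without overlap, a fold of 1.98 and a log2 difference of 0.99 ± 0.25 (adjusted p = 0.0122). The call was lost without CD11c control replicate 1 (adjusted p = 0.0643), CD11c control replicate 2 (adjusted p = 0.0605) or CD11c CGRP replicate 2 (adjusted p = 0.0829), the last being the library with the most chondrocyte marker counts. In IAIE cells *Mitf* was at 61.4, 29.5 and 54.6 CPM in control and at 69.3, 72.2 and 100 CPM in CGRP libraries, also without overlap, at 0.74 ± 0.25 (adjusted p = 0.0764). The IAIE value passed by DESeq2 (adjusted p = 0.0401), with either other filter on low counts, and without IAIE control replicate 1 (adjusted p = 0.0478). The counts do not separate the isoforms of *Mitf*. *Tfeb* was at 33.2, 29.2 and 32.2 CPM in IAIE control and at 18.8, 21.1 and 21.5 CPM in IAIE CGRP libraries, without overlap, at -0.62 ± 0.29 (adjusted p = 0.209), and at 19.0, 13.6 and 16.01 CPM in CD11c CGRP libraries, at -0.45 ± 0.29 (adjusted p = 0.404). *Tfe3* was at 102, 88.4 and 120 CPM in IAIE CGRP and at 108, 119 and 114 CPM in CD11c CGRP libraries, with log2 differences of 0.03 ± 0.16 and 0.07 ± 0.15. The sign of *Tfe3* changed with upper-quartile scaling in IAIE cells. *Mcoln1* was at 33.9, 50.5 and 47.3 CPM in IAIE CGRP libraries, below all 3 controls, at -0.47 ± 0.20 (adjusted p = 0.185), and at 29.9, 31.7 and 24.2 CPM in CD11c CGRP libraries, at 0.23 ± 0.21 (adjusted p = 0.609).

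**Figure D5:**
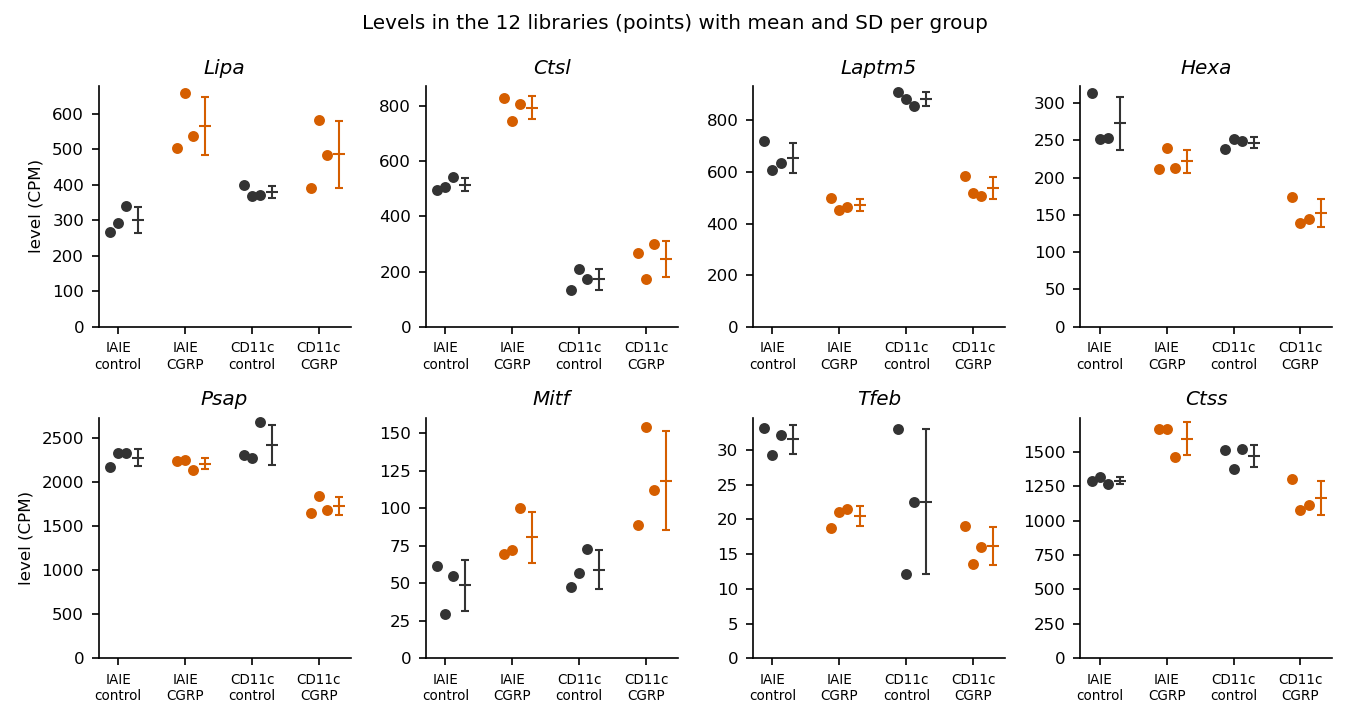
Level in CPM (vertical axis, from 0) of 8 genes in the 12 libraries (points, control dark and CGRP orange), with mean and SD per group. *Lipa* and *Ctsl* are higher in the IAIE CGRP libraries than in IAIE controls, *Laptm5* is lower in both CGRP groups, *Hexa* and *Psap* are lower in CD11c CGRP libraries, and *Mitf* is higher in CD11c CGRP libraries.

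None of the 12 listed pump subunits passed the threshold after CGRP in either subset (0 of 12 by edgeR, DESeq2 and limma-voom, with 3 in IAIE and 1 in CD11c cells at an unadjusted p under 0.05). Outside these 12, *Tcirg1* rose in IAIE cells (adjusted p = 0.00427) and *Atp6ap1* in CD11c cells (adjusted p = 0.0257), with values given further on. The 12 log2 differences lay between -0.22 (*Atp6v0a1*) and 0.35 (*Atp6v0e*) in IAIE cells and between -0.20 (*Atp6v0e*) and 0.36 (*Atp6v0a1*) in CD11c cells. For *Atp6v1a* the 95% intervals were 0.02 to 0.58 and -0.09 to 0.47, and for *Atp6v1b2* -0.22 to 0.26 and -0.05 to 0.43, so that a change of 1 on the log2 scale lay outside each of them.

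Of the remaining members, *Ctsb*, *Ctsd* and *Cd63* stood higher in each IAIE CGRP library than in any IAIE control, at 0.30 ± 0.10, 0.33 ± 0.13 and 0.38 ± 0.13, with adjusted p-values of 0.0744, 0.130 and 0.0840. They passed in 4, 0 and 3 of the 9 alternative fits with all libraries, DESeq2 and limma-voom among them for *Ctsb* and *Cd63*. The call appeared without 1 library for *Ctsd* (without IAIE control replicate 2, adjusted p = 0.0392) and *Cd63* (without IAIE control replicate 1, adjusted p = 0.0383). *Ctsc* was at -0.50 ± 0.16 in IAIE cells (adjusted p = 0.0584, 0.016 without IAIE CGRP replicate 3, and passing in 4 of 9 alternatives) and -0.25 ± 0.16 in CD11c cells. *Gusb* was at -0.61 ± 0.19 in CD11c cells (adjusted p = 0.0508) and passed in 7 of 9 alternative fits with all libraries and without IAIE control replicate 1 or 3 or CD11c CGRP replicate 3 (adjusted p between 0.0425 and 0.0455). *Ctsa*, *Ctsh*, *Gaa*, *Glb1*, *Grn*, *Lamp1*, *Lamp2*, *Ctsz* and *Lgmn* had log2 differences between -0.39 and 0.38 in IAIE cells and between -0.47 and 0.60 in CD11c cells, and none of them passed. *Ctsh* in CD11c cells passed in 6 of 9 alternative fits and without CD11c control replicate 2 (adjusted p = 0.0463) or IAIE CGRP replicate 1 (adjusted p = 0.046). Without CD11c CGRP replicate 1 *Ctsa* and *Grn* also passed there (adjusted p = 0.0282 and 0.0393).

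The test of the difference between the subsets' responses (CD11c minus IAIE, on the log2 scale) called 0 of the 36 genes by edgeR and by limma-voom and 1 by DESeq2, with 8 at an unadjusted p under 0.05 and 0.151% of all genes called (0.134% higher and 0.0168% lower). The smallest adjusted p was that of *Ctss*, at 0.130. *Ctss* was at 1285, 1313 and 1262 CPM in IAIE control and at 1665, 1663 and 1458 CPM in IAIE CGRP libraries, whereas in CD11c cells it was at 1514, 1375 and 1516 CPM in control and at 1300, 1073 and 1115 CPM in CGRP libraries. Every CGRP library was thus higher than its controls in IAIE cells and lower in CD11c cells, at 0.31 ± 0.11 (adjusted p = 0.0920) and -0.34 ± 0.11 (adjusted p = 0.0571), and the difference was -0.65 ± 0.16. The value in CD11c cells passed in 6 of 9 alternatives and without CD11c CGRP replicate 1 (adjusted p = 0.0185) or CD11c control replicate 2 (adjusted p = 0.0489), and that in IAIE cells in 2 of 9. The difference passed in 3 of 10 alternatives, by DESeq2 (adjusted p = 0.00862), with treatment and replicate as a block (adjusted p = 0.0433) and with every gene of at least 1 count (adjusted p = 0.0161), and without CD11c CGRP replicate 1 (adjusted p = 0.0448). *Mcoln1* at 0.69 ± 0.30 (adjusted p = 0.501) and *Atp6v0a1* at 0.58 ± 0.24 (adjusted p = 0.494) had the largest positive differences.

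Without IAIE control replicate 2, IAIE CGRP replicate 1 and CD11c CGRP replicate 2, the libraries with the most fibroblast or chondrocyte marker counts, CGRP changed 3 members in the IAIE and 5 in the CD11c subset, and 18 and 16 passed between the subsets in control and CGRP libraries, where 6.4%, 7.42%, 16.6% and 10.2% of all genes passed. *Ctsl* then lost its call in IAIE cells (adjusted p = 0.058) and passed in CD11c cells (adjusted p = 0.0171), and *Ctsd* passed in IAIE cells (adjusted p = 0.04996). Between the subsets *Ctsc* lost its call in control libraries (adjusted p = 0.223), and *Ctss*, *Hexa*, *Gusb*, *Psap*, *Lamp2* and *Atp6v1e1* lost theirs in CGRP libraries (adjusted p between 0.061 and 0.168). *Lipa* in IAIE cells, *Laptm5* in both subsets, and *Hexa*, *Psap* and *Mitf* with CGRP in CD11c cells stayed under the threshold. The part of stromal RNA in the other values was not tested.

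Other lysosomal genes were counted in 7 further lists of 172 genes, 152 of them tested. In control libraries 50 of the 152 were lower and 8 higher in CD11c cells, and in CGRP libraries 51 and 6, in all 38.2% and 37.5% of them against 21.2% and 16.9% of all genes. Among 38 other hydrolases 14 were lower and 2 higher in control libraries. *Hyal1* (a hyaluronidase) was lower by -2.77 ± 0.27 and *Hgsnat* (which acetylates heparan sulfate) by -1.91 ± 0.19, whereas *Gm2a* (the GM2 activator, which works with beta-hexosaminidase) was higher by 2.06 ± 0.13 and *Naaa* (an acid amidase) by 1.05 ± 0.16. Among 29 other membrane proteins and transporters 12 were lower, with *Cd68* at -1.03 ± 0.12 and *Mcoln2* at -1.53 ± 0.24, and *Cd68* is also on the macrophage list. Of 12 other V-ATPase subunits and accessory proteins 3 were lower, *Dmxl2* (-1.52 ± 0.29) and *Dmxl1* (-0.89 ± 0.17), which take part in pump assembly, and *Atp6ap1* (-0.46 ± 0.13), and *Atp6v0a2* was higher (0.84 ± 0.25). The called shares of these 3 lists were 42.1%, 41.4% and 33.3%. In 25 sorting genes 8 were lower and 2 higher (40% called), and in 21 nutrient-sensing genes 8 and 1 (42.9%). In 25 autophagy genes 4 were lower and 1 higher, and this 20% was near the 21.2% of all genes. Of 2 cysteine protease inhibitors tested *Cstb* was lower and *Cst3* higher. In CGRP libraries 3 of the 25 autophagy genes passed between the subsets (12% against 16.9% of all genes).

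CGRP changed 16 of the 152 genes in IAIE cells, 10 up and 6 down, and 22 in CD11c cells, 9 up and 13 down, or 10.5% and 14.5% of them against 9.21% and 10.9% of all genes. Several of them changed more than any of the 36 members. *Gm2a* fell by a log2 difference of -1.27 ± 0.13 in IAIE and -1.15 ± 0.12 in CD11c cells, *Naaa* by -0.96 ± 0.16 and -1.48 ± 0.16, and *Man2b1* (lysosomal alpha-mannosidase) by -0.56 ± 0.13 and -0.86 ± 0.13. *Hyal1* rose by 1.04 ± 0.23 and 1.80 ± 0.27. *Npc2*, which hands cholesterol freed by the acid lipase to the membrane, rose by 0.66 ± 0.13 and 0.49 ± 0.13, and *Slc11a1*, a metal transporter of the phagosome, by 0.61 ± 0.14 and 0.71 ± 0.14. *Abca2*, on the same list of membrane proteins and transporters, fell by -1.27 ± 0.36 and -1.58 ± 0.35. That list had 4 genes up and 2 down in IAIE cells, and 3 up and 2 down in CD11c cells. In the pump lists *Tcirg1*, an alternative subunit a of V0, rose in IAIE cells by 0.63 ± 0.13 and *Atp6ap1* in CD11c cells by 0.44 ± 0.13, and *Ncoa7*, which binds V1, rose by 0.66 ± 0.20 and 1.47 ± 0.19. Of the regulators of MiT factors *Flcn* fell in IAIE cells (-0.60 ± 0.16), and *Ppp3ca* (-0.90 ± 0.16) and *Fnip2* (-0.45 ± 0.11) fell in CD11c cells.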

How the data were processed

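Bulk total RNA of sorted synovial macrophages was sequenced (SMARTer pico kit, paired-end, NovaSeq). Per the study's methods, the authors trimmed reads with Trim Galore, checked them with FastQC, aligned them to mm10 with HISAT2 and assigned them to genes with featureCounts. Versions, annotation and strand setting are not given in the sources used here. Each library's deposited file holds whole-number read counts by gene symbol, which were used unchanged. A combined table was not used, and 6 of its columns match no label.

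Genes were kept with filterByExpr (minimum count 10, minimum total 15), scaled by TMM and fitted by quasi-likelihood in edgeR (4.0.16, R 4.3.3) as 4 group means over all 12 libraries. P-values were adjusted (Benjamini-Hochberg) over all tested genes in each of 5 contrasts. Differences are log2 ± SE and levels are mean ± SD. The sources used here do not say whether PCR duplicates were removed, so the floor of 3 counts covers counting error only. The biological coefficient of variation was 0.256. The tests were checked on simulated counts.

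The 36 members, the gene lists and the tests were chosen with earlier results of these data known. All members are named. Values in every library are given for members past the threshold with CGRP, for the 6 with the smallest p between subsets in controls, and for *Tfeb*, *Tfe3*, *Mitf* and *Mcoln1*. Those of *Ctss* were added after its values were seen. In the other lysosomal lists, genes were named from the 3 with the smallest p in each list, direction and comparison.

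Alternatives were RLE and upper-quartile scaling, 2 other filters, the replicate number as a block (alone or with treatment), 1 surrogate variable (sva 3.50.0), only the compared libraries, DESeq2 (1.42.0), limma-voom (limma 3.58.1), and each library left out in turn. The fit without the 3 libraries high in stromal counts was chosen with the values in view.

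The labels give no meaning to the replicate numbers. Over 5411 genes averaging 20 CPM or more, deviations from the group means were compared between libraries that share a number. For IAIE and CD11c libraries after CGRP the correlations were 0.33, 0.107 and 0.178. All exceeded 0.1, so a paired form of this comparison was also fitted, with treatment and replicate as a block. Unless the block is named, the counts, differences and adjusted p-values of this comparison come from the unpaired fit. The same holds for the difference of responses. In no other pair of groups did every number exceed 0.1.

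Promoter windows came from RefSeq (GRCm38.p6) and gene positions from GENCODE M21 (GRCm38). Motifs were searched as exact letters, which read the same on both strands.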

Additional observations from a re-analysis of the deposited data

How the results depend on the processing

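The medians between the subsets kept their direction in every fit, and no member past the threshold changed sign in any fit. Of these members, 16 of 19 between the subsets in control libraries, 17 of 22 in CGRP libraries, 3 of 4 for CGRP in CD11c cells and 1 of 3 in IAIE cells passed in all 9 or 10 alternatives and all 12 fits without a library. For CGRP in IAIE cells 3 members passed, and 5 with every gene of at least 1 count, 5 with at least 10 counts in every library, 8 by DESeq2 and 7 by limma-voom, where 4.73%, 15.6%, 11.3% and 7.90% of all genes passed. For CGRP in CD11c cells 4 passed, and 8 with upper-quartile scaling, 7 with at least 10 counts in every library, 7 with the replicate block, 9 by DESeq2 and 8 by limma-voom, beside 11.2%, 16.5%, 11.9%, 12.9% and 13.0% of all genes. For the difference of responses 0 passed, and 1 (*Ctss*) with every gene of at least 1 count, with treatment and replicate as a block, and by DESeq2. The causes of these changes were not tested.

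The member median for CGRP in IAIE cells, 0.05, was -0.0046 with upper-quartile scaling and 0.12 with every gene of at least 1 count. In CD11c cells, 0.07, it was 0.0168 without the 3 libraries with most stromal counts. That of the difference of responses, -0.10, was -0.17 with every gene of at least 1 count, and that between subsets in controls, -0.48, was -0.40. *Tfe3* with CGRP in IAIE cells, 0.03, was at -0.0225 with upper-quartile scaling and -0.0175 by limma-voom, and at -0.0894 to 0.13 with each library left out in turn (-0.0598 without IAIE control replicate 1, the lowest without IAIE CGRP replicate 3). In CD11c cells it was at -0.0781 to 0.14, negative without CD11c control replicate 3. No value of *Tfe3* passed the threshold in these fits.

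Leaving out each library in turn gave 1 to 3 members for CGRP in IAIE cells, the lowest without IAIE CGRP replicate 2, and 3 to 7 in CD11c cells, the highest without CD11c CGRP replicate 1. It gave 0 to 1 for the difference of responses, 16 to 19 between the subsets in control and 19 to 23 in CGRP libraries. The medians ranged from 0.0314 to 0.11, from -0.0065 to 0.0802, from -0.17 to -0.0694, from -0.52 to -0.39 and from -0.55 to -0.48 in the same order. With the replicate number alone as a block, 4 members passed for CGRP in IAIE cells (*Ctsb* added, adjusted p = 0.037), 7 in CD11c cells, 20 between the subsets in control and 21 in CGRP libraries, where *Mcoln1* was lost (adjusted p = 0.0539). With treatment and replicate as a block, 21 passed in control and 22 in CGRP libraries.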
